A study of Homo sapiens with 2 samples.

Results

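ATP-binding cassette (ABC) transporter genes were compared between ACHN cells with Kindlin-2 knocked down by an shRNA and ACHN cells given a control shRNA. ACHN is an established human renal carcinoma line, which the labels call clear cell. Both cultures had been transfected and were kept in medium with serum and the selection drug G418, and neither differed from the other in any labelled respect but the hairpin. The labels give neither the hairpin sequences nor whether the cells were a clone or a pool. Total RNA of each culture was hybridised to 1 Affymetrix Human Gene 1.0 ST array (n = 1 per group), so every value below is a single measurement without a replicate check, no difference was tested, and their number, 2 arrays in all, limits the precision. Members were the genes whose platform symbol is ABC, a letter from A to G and a number. ABCC8 and ABCC9, the sulfonylurea receptors of potassium channels, were left out. This gave 41 genes of the 18417 with a single symbol on the array, spread over 16 chromosomes. Of the 2 genes left out, ABCC9 was 8.96-fold lower, at 7.24 in the Kindlin-2 shRNA array and 10.40 in the control array. ABCC8 had 6.49 in the Kindlin-2 shRNA array and 6.47 in the control array. Statements on the family below do not cover them. FERMT2, the gene of Kindlin-2, had a log2 value of 8.26 in the Kindlin-2 shRNA array and 9.37 in the control array, a difference in the direction of the label.

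ABC proteins carry a nucleotide-binding domain that hydrolyses ATP, and most use it to move lipids, drugs, bile salts, peptides or metal complexes across a membrane. ABCA and ABCG members are known mainly for lipids, ABCB1, ABCG2 and the ABCC members for the export of drugs and their conjugates, and ABCD members for fatty acyl groups entering the peroxisome. ABCE1 and the ABCF proteins have no membrane-spanning part and act in translation. In the kidney tubule several ABC proteins pass drugs and organic anions into the urine, and P-glycoprotein (ABCB1) has long been studied in renal carcinoma as a drug exporter.

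The family showed no common shift between the arrays. None of the 41 genes differed by 2-fold or more, against 1.91% of all 18417 genes. At 1.5-fold, 2 members were higher in the Kindlin-2 shRNA array (ABCA1 and ABCA5), against 3.77% of all genes, and 1 was lower (ABCA12), against 3.81%. These 3 genes make up 7.32% of the family, and 7.57% of all genes lay past the same fold, so the share is that of the background. The median difference of the 41 genes was 0.0017 on the log2 scale, and that of all genes was -0.01. Of the members, 22 lay above 0, 18 below 0 and 1, ABCC2, had the same value on both arrays. This split was 17 above and 24 below when the 2 columns were quantile normalised once more, so it carries no direction. The differences of 28 members (68.3%) were smaller than 0.2 in size, as were those of 56.6% of all genes.

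Many members were dim. The table's median value of 6.52 served as a floor. Of the 41 members 22 (53.7%) reached it, each of them on both arrays, and 19 lay under it on both. Of all genes 64.2% reached it on either array. Of the 22, ABCA1 and ABCA12 differed by 1.5-fold or more, together 9.09%, against 10.3% of the 11822 genes that reached the floor on either array. The deposited values carry no detection call, so a gene under the floor may be absent or only dim.

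**Figure D1:**
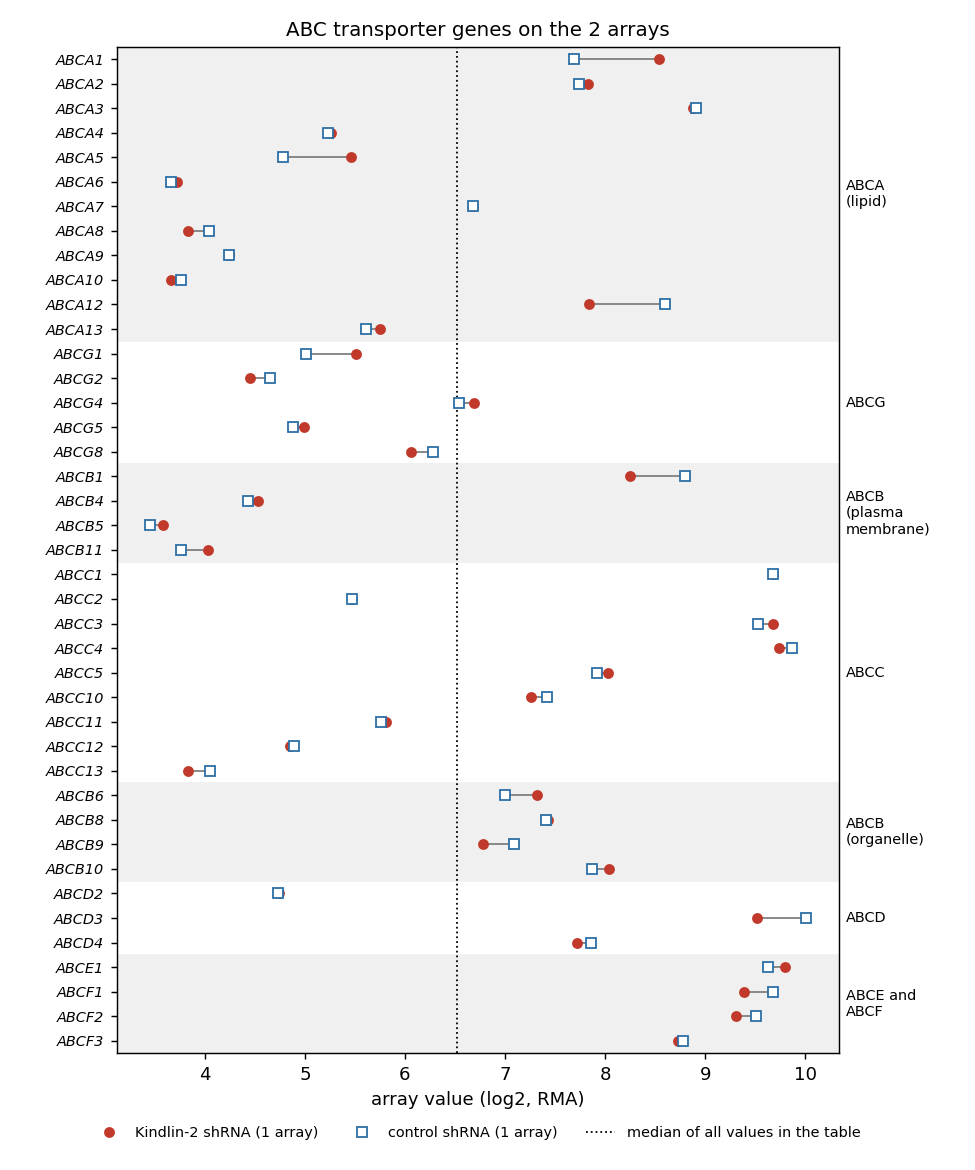
Log2 array values (x axis) of the 41 ABC transporter genes, with red circles for the Kindlin-2 shRNA array and open blue squares for the control shRNA array (1 array each), grouped by function. Most pairs nearly coincide, and the widest gaps are those of ABCA1, ABCA12 and ABCA5; the dotted line is the table median of 6.52.

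The starts of these 3 genes are shown because they hold the family's only differences past 1.5-fold and because the control region of ABCA1 is well studied. The sequences are RefSeq's for GRCh38.p14, from 250 bases before to 50 bases after the annotated start, 5′ to 3′ on the gene's strand. Capitals mark matches, on either strand, to the motifs listed after them.
ABCA1, chr9:104928106-104928405, minus strand: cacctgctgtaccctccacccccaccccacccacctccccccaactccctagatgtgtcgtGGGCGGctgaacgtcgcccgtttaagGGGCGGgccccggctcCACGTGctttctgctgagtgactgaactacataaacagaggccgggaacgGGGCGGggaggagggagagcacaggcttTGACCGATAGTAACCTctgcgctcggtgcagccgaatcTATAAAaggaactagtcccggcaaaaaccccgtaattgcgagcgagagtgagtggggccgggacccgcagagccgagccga
ABCA5, chr17:69327084-69327383, minus strand: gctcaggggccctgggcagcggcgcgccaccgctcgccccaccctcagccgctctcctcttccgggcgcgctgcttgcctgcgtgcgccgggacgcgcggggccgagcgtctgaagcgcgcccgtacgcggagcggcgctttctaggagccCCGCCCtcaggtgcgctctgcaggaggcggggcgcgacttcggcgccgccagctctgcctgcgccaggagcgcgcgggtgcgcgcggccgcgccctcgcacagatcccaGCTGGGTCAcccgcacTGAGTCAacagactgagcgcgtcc
ABCA12, chr2:215138577-215138876, minus strand: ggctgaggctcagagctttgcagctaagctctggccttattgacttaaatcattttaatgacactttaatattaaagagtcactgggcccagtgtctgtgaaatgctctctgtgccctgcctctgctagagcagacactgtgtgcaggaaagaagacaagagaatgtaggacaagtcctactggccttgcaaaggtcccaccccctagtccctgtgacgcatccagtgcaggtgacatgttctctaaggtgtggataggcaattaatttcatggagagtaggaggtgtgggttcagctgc

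Of the 41 members 33 had such a sequence. Motifs were searched on both strands as fixed letters, with N for any base, and a match is only a description of the letters. The GC box GGGCGG was found in 51.5% of the members and in 44.6% of all 27305 promoters. The CCAAT box stood in 6 of the 33 members (18.2%) and in 35.7% of all promoters. The TATA box TATAAA stood in 15.2% of members and 12% of all promoters, and the E-box CACGTG in 12.1% of members and 7.43% of all promoters. The antioxidant element TGACNNNGC stood in 21.2% of members and 13.6% of all promoters, and the TEAD motif GGAATG in 24.2% of members and 14% of all promoters. The AP-1 motif TGANTCA was in 6.06% of members and 7.76% of all promoters. The sterol element TCACNCCAC was in no member window and in 1.15% of all promoters.

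The nuclear receptor LXR, which senses oxidised sterols, binds a pair of half-sites with a spacer of 4 bases. A pair of consensus half-sites AGGTCA so spaced was in no member window and in 5 of all promoters. A relaxed pair, each half-site NGGTNA, was found in 1 member, ABCA1, and in 0.652% of all promoters. In ABCA1 it begins at base -69 on the opposite strand, between an upstream E-box at -147 and a TATA box at -31, beside GC boxes at -189, -163 and -97. The ABCA5 window held a GC box at -99, an antioxidant element at 10 and an AP-1 match at 26. The ABCA12 window held no match to any of these motifs. Positions are those of a match's first base, with the annotated start as 0.

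Among the lipid transporters, ABCA1, which passes cholesterol and phospholipid to apolipoprotein A-I, had a log2 value of 8.54 in the Kindlin-2 shRNA array and 7.69 in the control array. The level was 1.80-fold higher, the largest difference among the 41 members, and 262 of the 11822 genes at the floor had a larger increase. ABCA12, known for loading glucosylceramide into the secretory granules of keratinocytes, had 7.84 in the Kindlin-2 shRNA array and 8.60 in the control array. Its level was 1.70-fold lower, and 311 genes at the floor had a larger decrease. Both reached the floor on both arrays, and they lay on opposite sides of 0. With all genes divided into 10 bins of brightness, both fell in the same bin and outside its central 90%, which ran from -0.63 to 0.61. Together with ABCA5 and ABCG1, 4 of the 41 members (9.76%) lay outside the central 90% of their bins, about the share that those limits leave outside for all genes.

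ABCA5, a transporter of late endosomes and lysosomes, had 5.46 in the Kindlin-2 shRNA array and 4.78 in the control array, a 1.60-fold higher level with both values under the floor. It lies on chromosome 17 directly beside ABCA10, ABCA6, ABCA9 and ABCA8, close relatives with no other coding gene between them. These 4 neighbours differed by -0.10, 0.06, 0.00034 and -0.21, and ABCA5 was the only gene of the row past 1.5-fold. All 5 were under the floor, and RMA compresses differences between dim values.

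The other 5 ABCA genes differed little. ABCA2, a lipid transporter of the endolysosome, had 7.83 in the Kindlin-2 shRNA array and 7.74 in the control array. ABCA3, which loads surfactant lipid in the lung, had 8.88 in the Kindlin-2 shRNA array and 8.91 in the control array. ABCA7, a phospholipid transporter, had 6.68 on both. ABCA4, the retinoid transporter of photoreceptors, and ABCA13, the longest member, were under the floor, with differences of 0.03 and 0.15. Of the 12 ABCA genes 5 reached the floor.

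The ABCG proteins are half-size transporters that work in pairs. ABCG1, which passes cholesterol to high-density lipoprotein, had 5.51 in the Kindlin-2 shRNA array and 5.01 in the control array. Its difference of 0.51 was in the same direction as that of ABCA1, but it fell short of 1.5-fold and both values were under the floor. ABCG2, a drug and urate exporter also called breast cancer resistance protein, had 4.45 in the Kindlin-2 shRNA array and 4.65 in the control array. ABCG5 and ABCG8, adjacent genes whose products pair to export plant sterols, differed by 0.11 and -0.22. ABCG4, a sterol transporter of the nervous system and the only ABCG gene at the floor, differed by 0.15.

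Of the plasma membrane ABCB transporters only P-glycoprotein reached the floor. ABCB1 had 8.25 in the Kindlin-2 shRNA array and 8.80 in the control array. Its difference of -0.55, or 1.47-fold lower, lay just inside the 1.5-fold limit, and 694 genes at the floor had a larger decrease. The median of its 50 neighbouring genes on chromosome 7 was -0.27, and with that subtracted ABCB1 was at -0.28. ABCB4, the gene directly beside it, which exports phosphatidylcholine into bile, differed by 0.10 with both values under the floor. ABCB11, the bile salt export pump, and ABCB5, a close relative of ABCB1, were also under the floor and differed by 0.26 and 0.13.

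The multidrug resistance-associated ABCC proteins differed little, with values from -0.22 to 0.15 over 9 genes, on the log2 scale, and none past 1.5-fold. ABCC1, which exports glutathione conjugates, had 9.68 on both arrays, with a difference of -0.0052. ABCC3, a basolateral exporter of conjugated bile salts and glucuronides, had 9.68 in the Kindlin-2 shRNA array and 9.53 in the control array. ABCC4, an exporter of cyclic nucleotides and urate, had 9.74 in the Kindlin-2 shRNA array and 9.87 in the control array.

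ABCC5, which also exports cyclic nucleotides, and ABCC10 reached the floor with differences of 0.10 and -0.17. ABCC2, the apical counterpart of ABCC3 in liver and proximal tubule, was listed at 5.47 on both arrays. ABCC11, known for its part in earwax type, its neighbour ABCC12 and ABCC13, which makes no working transporter in humans, were under the floor and differed by 0.05, -0.04 and -0.22.

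**Figure D2:**
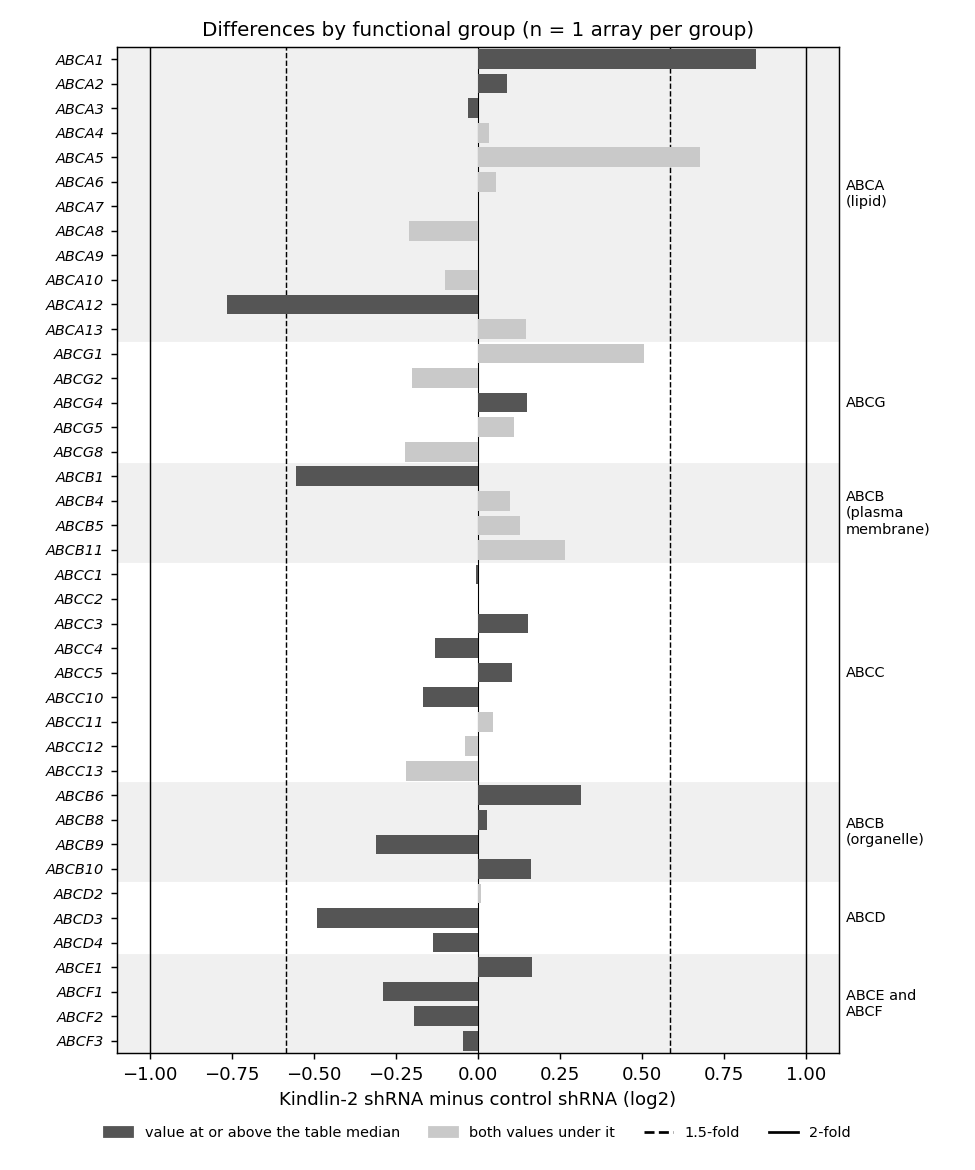
Difference in log2 value, Kindlin-2 shRNA minus control shRNA (x axis), for each of the 41 genes by functional group; dark bars are genes at or above the table median and pale bars genes under it on both arrays. No bar reaches the solid 2-fold lines, and 3 pass the dashed 1.5-fold lines, all of them ABCA genes.

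The 4 organelle ABCB half-transporters all reached the floor. ABCB6, a porphyrin transporter, had 7.32 in the Kindlin-2 shRNA array and 7.0045 in the control array. ABCB9, a peptide transporter of the lysosome, had 6.78 in the Kindlin-2 shRNA array and 7.09 in the control array. These 2 genes had the group's widest differences, 0.32 and -0.31, and they ran in opposite directions. ABCB10 and ABCB8, both of the inner mitochondrial membrane, differed by 0.16 and 0.03, and the 3 transcript clusters of ABCB8 gave differences from 0.03 to 0.04. With their neighbours' medians subtracted ABCB6 was at 0.28, ABCB8 at 0.24, ABCB10 at 0.16 and ABCB9 at -0.14. By that correction ABCB9, on chromosome 12, was no longer among the group's widest differences.

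Of the ABCD genes, ABCD3 encodes an abundant peroxisomal membrane protein that takes in branched-chain acyl groups and bile acid precursors. It had 9.51 in the Kindlin-2 shRNA array and 10.01 in the control array, a difference of -0.49, short of 1.5-fold. With the median of its neighbours on chromosome 1 (0.03) subtracted it was at -0.52. ABCD4, the lysosomal carrier of cobalamin, differed by -0.14, and ABCD2, a peroxisomal carrier of very long acyl groups, by 0.01 with both values under the floor.

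The soluble members all reached the floor. ABCE1, which splits ribosomes after termination, had 9.80 in the Kindlin-2 shRNA array and 9.63 in the control array. ABCF1, a factor of translation initiation, had 9.39 in the Kindlin-2 shRNA array and 9.68 in the control array. It is listed under 3 transcript clusters with identical values, which count as 1 measurement. ABCF2 and ABCF3 differed by -0.19 and -0.04, and all 4 soluble members were within 1.5-fold. ABCF2, on chromosome 7, was at 0.02 with its neighbours' or its chromosome's median subtracted, so its sign is not steady.

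**Figure D3:**
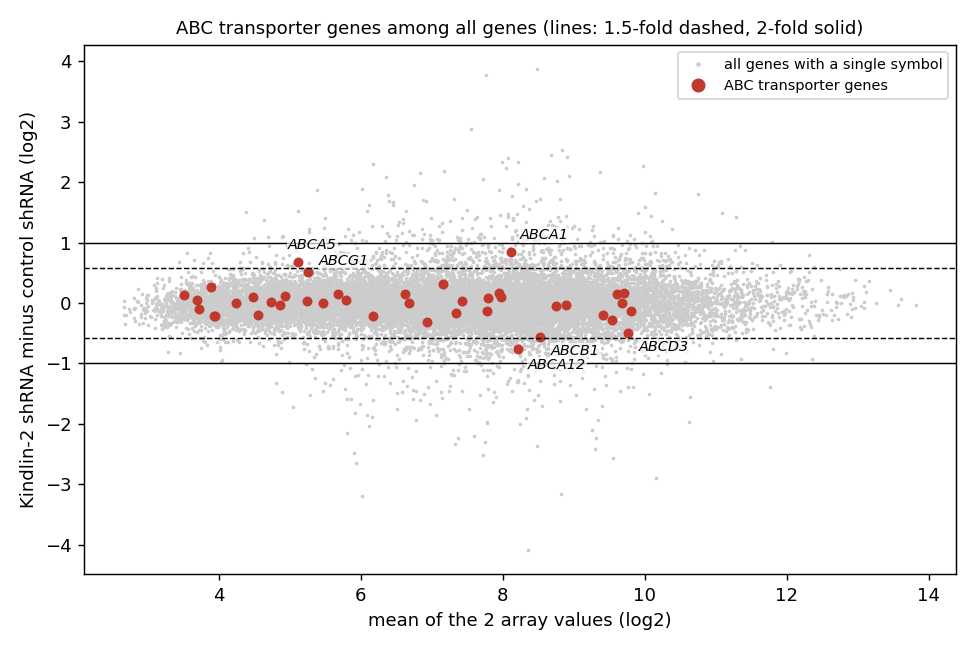
Difference (Kindlin-2 shRNA minus control shRNA, log2) against the mean of both arrays for all 18417 genes (grey) and the 41 ABC transporter genes (red), 1 array per group; dashed lines mark 1.5-fold and solid lines 2-fold. All ABC points lie between the 2-fold lines, and ABCA1, ABCA5 and ABCA12 lie past the dashed ones.

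Genes of chromosomes 7, 9 and 12 had medians of -0.22, -0.31 and -0.21 as a whole. Of the 41 members 10 lie on these chromosomes, and 7 of the 10 were above 0. Of the 10, 8 were above the median of their 50 neighbouring genes, and 6 reached the floor, 4 of these above that median. The members under the floor, ABCA13, ABCB4, ABCB5 and ABCD2, all lay above it. Their differences are compressed while the neighbours are genes at the floor, so their place above a negative median carries little. ABCA1 lies on chromosome 9 among neighbours with a median of -0.27, opposite to its own sign. With that median subtracted its difference was 1.12, or 2.17-fold, and with the chromosome's median subtracted 1.16, or 2.23-fold. Of the alternatives tried, only these corrections brought a member past 2-fold. ABCA2 on the same chromosome was at 0.32 with its neighbours subtracted.

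ABCA12 on chromosome 2 had neighbours with a median of 0.12, also opposite to its own sign, and was at -0.89 with them subtracted. ABCA5 was at 0.57, or 1.48-fold, by the same correction. Of the 31 members on other chromosomes 14 lay above their neighbours' median. Part of each chromosome shift could be shared by a member on it, and this was not tested.

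**Figure D4:**
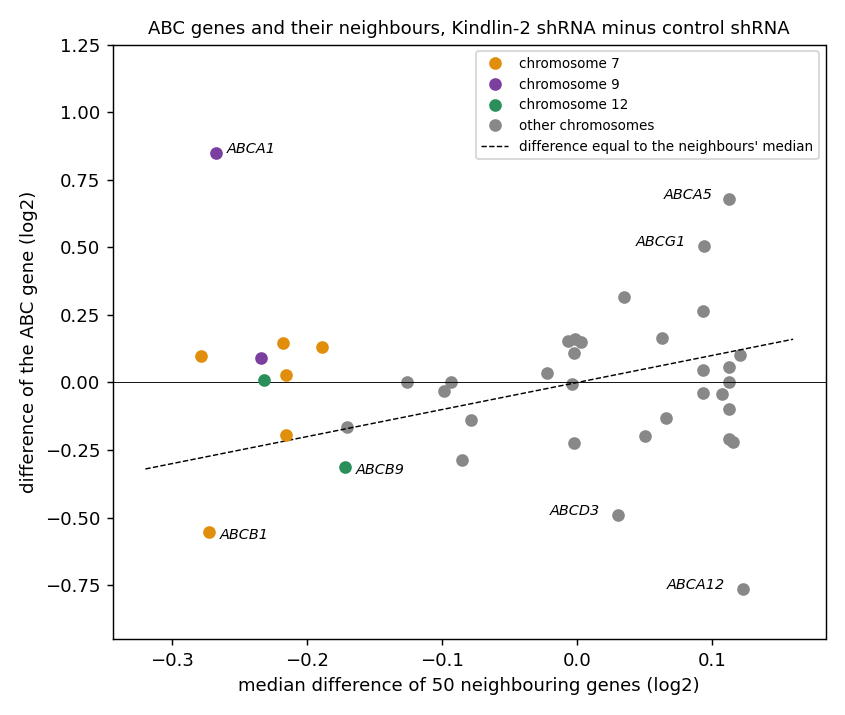
Difference of each of the 41 ABC genes (y axis) against the median difference of its 50 neighbouring genes (x axis), both Kindlin-2 shRNA minus control shRNA on the log2 scale, coloured by chromosome. ABCA1 at 0.85 lies far above neighbours at -0.27, ABCA12 at -0.76 lies below neighbours at 0.12, and ABCB1 shares the sign of its neighbours.

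Genes that work with the ABC transporters were described from lists chosen with earlier results of these data known, over the genes that reached the floor. Beside ABCA1 and ABCG1, both known LXR targets, the list of sterol efflux genes and LXR partners had a median of -0.16 over 18 genes, 9 above and 9 below 0. With the dim member kept the median was 0.0022, so it has no steady sign. PLTP, the phospholipid transfer protein and an LXR target, was 1.62-fold higher in the Kindlin-2 shRNA array, at 11.42 against 10.73 in the control array. MYLIP, an LXR target that degrades the LDL receptor, was 1.62-fold lower, at 7.45 in the Kindlin-2 shRNA array and 8.15 in the control array. RXRA, the partner receptor of LXR, was 1.61-fold lower, at 7.49 in the Kindlin-2 shRNA array and 8.18 in the control array. All 3 calls at 1.5-fold are lost when the median of 50 neighbouring genes is subtracted, with PLTP at 0.36, MYLIP at -0.54 and RXRA at -0.42 on the log2 scale.

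Named after their values were seen, NR1H3, the gene of LXR-alpha, differed by -0.51, and its targets SREBF1, LPCAT3 and APOE by -0.33, -0.42 and -0.46. With neighbours' medians subtracted NR1H3 was at -0.46, SREBF1 at -0.33, APOE at -0.41 and LPCAT3, on chromosome 12, at -0.22. The LXR targets named here thus ran both ways on these arrays, with ABCA1, ABCG1 and PLTP above 0. Other LXR targets were not gone through. SOAT1, which esterifies cholesterol and was also picked in this way, differed by 0.56.

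The list of xenobiotic receptors and SLC carriers had 15 genes at the floor, 4 above and 11 below 0, with a median of -0.16 (-0.05 over all 25 measured). Over all genes at the floor 5489 lay above and 6285 below 0. Of the 15, 2 (13.3%) lay past 2-fold, 1 in each direction, against 2.67% of all genes at the floor. The list was chosen with earlier results known, so this share says nothing of SLC carriers in general. SLCO4A1, an organic anion carrier that also takes up thyroid hormone, was 4.19-fold higher, at 9.62 in the Kindlin-2 shRNA array and 7.55 in the control array. SLC47A1, the apical exporter of organic cations in the proximal tubule, was 2.77-fold lower, at 5.85 in the Kindlin-2 shRNA array, under the floor, and 7.32 in the control array. Its relative and chromosome neighbour SLC47A2 was 1.90-fold lower and the carnitine carrier SLC22A5 1.93-fold lower. The ABC exporters of drugs named above, ABCB1, ABCG2 and ABCC1 to ABCC5, stayed within 1.5-fold, with ABCB1 near that limit at 1.47-fold lower. ABCG2 and ABCC2 were under the floor, and a contrast between ABC and SLC carriers was not tested.

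Conjugating enzymes make the glutathione and glucuronide conjugates that ABCC proteins export. Their list also held genes that make or reduce glutathione, GSS among them, and sulphotransferases. Of its 16 genes at the floor 5 were above and 10 below 0, with a median of -0.22 (-0.18 over all 23 measured). The glutathione transferases GSTM4 and GSTM3, close relatives on chromosome 1 whose probes may share signal, were 1.97-fold and 1.85-fold lower. Glutathione synthetase (GSS) was 1.71-fold higher, on chromosome 20, and at 0.58, just inside 1.5-fold, with its neighbours' median of 0.19 subtracted.

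ABC proteins with other symbols were TAP1 and TAP2, the peptide transporter of antigen presentation, and the chloride channel CFTR. TAP1 had 8.59 in the Kindlin-2 shRNA array and 9.30 in the control array, a 1.63-fold lower level, among neighbours on chromosome 6 with a median of -0.23. TAP2 differed by -0.15 and CFTR, under the floor, by -0.07. In the list of the peptide loading complex and related genes, 5 of 9 genes were above and 4 below 0. The chaperone CALR was 1.93-fold and the peptidase ERAP1 1.51-fold higher, and TAPBPL was 1.51-fold lower. With neighbours subtracted TAP1, ERAP1 and TAPBPL were at -0.47, 0.44 and -0.37, inside 1.5-fold, and CALR was at 1.07.

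Organelle ABC members work beside other pathways. Genes of iron-sulphur and haem metabolism, not all of them mitochondrial, had a median of -0.09 over 22 genes, 4 above and 18 below 0. Of these 1 (4.55%) passed 1.5-fold, against 10.3% of all genes at the floor. That gene was ALAD, the second enzyme of haem synthesis, 1.93-fold lower on chromosome 9. Genes of peroxisomal import and beta-oxidation had a median of -0.06 over 18 genes. SLC27A2, a very long-chain acyl-CoA synthetase, was 2.65-fold higher, at 7.70 in the Kindlin-2 shRNA array and 6.29, under the floor, in the control array. EHHADH, the bifunctional enzyme of peroxisomal beta-oxidation, was 1.78-fold lower.

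Factors of ribosome rescue, recycling and initiation, the partners of the soluble members, had a median of 0.15 over 23 genes, 17 above and 5 below 0. Over all genes at the floor the median was -0.02, with 5489 above and 6285 below 0. HBS1L, which works with ABCE1 on stalled ribosomes, was 1.67-fold higher. The initiation factor subunit EIF2S2 was 1.89-fold higher, on chromosome 20 among neighbours with a median of 0.24.

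**Figure D5:**
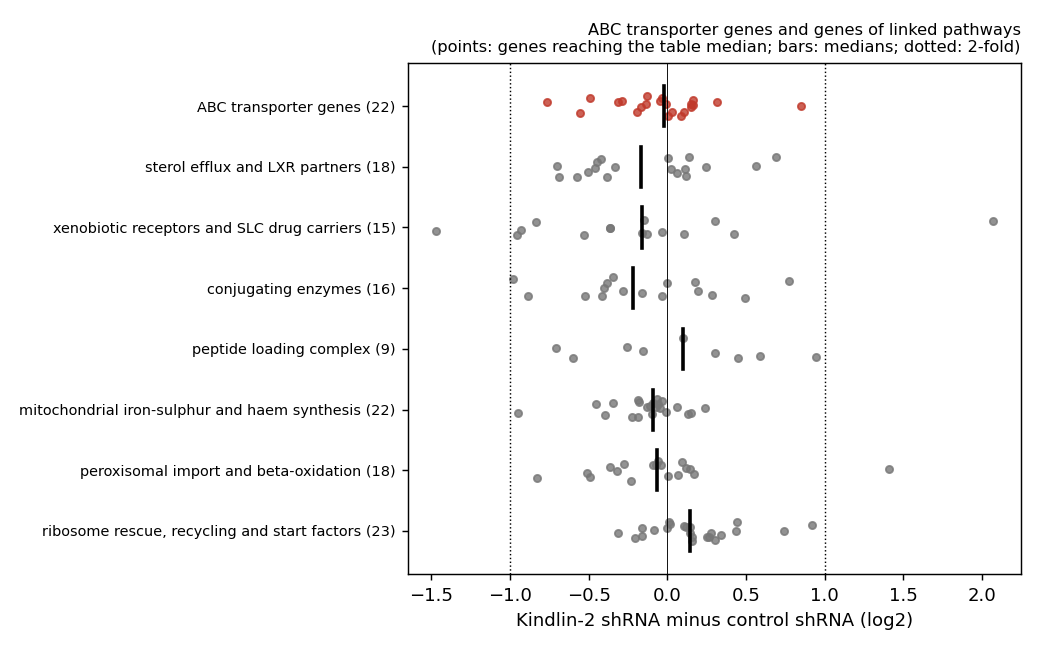
Log2 difference, Kindlin-2 shRNA minus control shRNA (x axis, 1 array per group), of genes that reached the table median in the ABC family (red) and in 7 lists of linked genes (grey), with bars for medians and the number of genes in brackets. The ABC genes stay within 2-fold, while SLCO4A1 and SLC27A2 lie above 2-fold and SLC47A1 below it.

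Markers were read to check the label. Of the renal epithelial markers 8 of 8 measured reached the floor on either array, and CDH16 and CDH6 reached it on only 1. The list had a median difference of -0.45, with 2 genes above and 6 below 0. PAX8, a transcription factor of the kidney lineage, had 11.29 in the Kindlin-2 shRNA array and 11.43 in the control array. Its relative PAX2 had 9.09 in the Kindlin-2 shRNA array and 9.75 in the control array, 1.58-fold lower, and was at -0.55, inside 1.5-fold, with its neighbours subtracted. The kidney cadherin CDH16 had 6.26 in the Kindlin-2 shRNA array, under the floor, and 7.10 in the control array. CDH6, another cadherin, ran the other way, at 7.32 in the Kindlin-2 shRNA array and 6.41, under the floor, in the control array. The keratins KRT8 and KRT18, on chromosome 12, differed by -0.54 and -0.44. With their neighbours' median of -0.25 subtracted they were at -0.29 and -0.19. LHX1 differed by -0.45 and EPCAM by 0.25. The part of these markers in the ABC values was not tested. Of the markers of clear cell renal carcinoma, VIM, VEGFA and ANGPTL4 reached the floor and EGLN3 did not, and ANGPTL4 was 1.77-fold higher. CA9 and NDUFA4L2 were not analysed here, so the clear cell label was not checked by its most specific markers. None of 6 leukocyte markers and 1 of 6 endothelial markers reached the floor. Of the fibroblast and smooth muscle markers 5 of 8 reached it on either array, and only 2 on both. Among them ACTA2 and PDGFRB were 1.70-fold and 1.71-fold lower, PDGFRB at 6.31, under the floor, in the Kindlin-2 shRNA array. The part of these 2 genes in the ABC values was not tested. In bulk RNA fewer cells with a transcript and less of it per cell cannot be told apart.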

How the data were processed

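Each of the 2 cultures gave 1 array, and groups were taken from the shRNA label. The authors ran RMA (background correction, quantile normalisation and a summary over probes) with version 1.4.1 of Affymetrix Expression Console, as given per the labels and the submitters' processing notes. The deposited values were taken as log2, from their range of 2.13 to 14.04 over 33297 clusters. The sources used here do not say which arrays were normalised together, and no scanner files were used.

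Symbols came from GEO's platform annotation, updated through Entrez IDs to RefSeq. A single symbol was given for 19460 clusters, several for 1754 and none for 12083. The cluster with the highest mean stood for a gene. The floor on dim genes was the median of all values. The difference was Kindlin-2 shRNA minus control shRNA, and no test was made. Neighbours were the 50 nearest genes at the floor on the same chromosome. The named genes were FERMT2, every member, TAP1, TAP2 and CFTR, and up to 3 genes per direction and pathway list past 1.5-fold at the floor. NR1H3, SREBF1, LPCAT3, APOE and SOAT1 were named outside this rule, after their values were seen, as were ABCC8 and ABCC9, the genes left out. Cell type markers were given by count, with defining ones by value. The members and lists were chosen with earlier results of these data known. The counting, neighbour medians and corrections between arrays were tested on simulated data. Python 3.11.15, numpy 2.4.6, pandas 2.3.3 and statsmodels 0.14.6 were used. Alternatives covered fold thresholds, floors, corrections between arrays and along chromosomes, and the choice of cluster and symbol.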

Additional observations from a re-analysis of the deposited data

How the results depend on the processing

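No paired analysis was possible because each group held 1 array, and for the same reason no array could be left out. The median difference of the ABC genes stayed between -0.02 and 0.03 under all alternatives tried, which included its mean (-0.00014), a loess, median or repeated quantile correction, the mean over a gene's clusters, the members at the floor alone and the symbols with a suffix. None of the 41 members was 2-fold lower under any alternative that kept the 2-fold threshold. The number at least 2-fold higher was 1 (ABCA1) in place of 0 when the chromosome's median or the median of 50 neighbours was subtracted. At a threshold of 1.5-fold 2 were higher and 1 lower, and at 3-fold none. Of the 3 genes past 1.5-fold all 3 stayed past it under each correction between arrays, and 2 with neighbours subtracted, where ABCA5 did not. Subtracting the chromosome median moved 10 of the 41 differences by 0.1 or more and subtracting neighbours 21, whereas the corrections between arrays moved none that far. Over all genes, 102 were 2-fold higher and 91 lower with the floor at the upper quartile, against 167 and 149 with the floor at the median, a smaller number because fewer genes were counted. Signal over background limits the 19 members under the floor, whose folds are compressed.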
